A study of Mus musculus with 24 samples.

Results

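Tumors of 2 heterozygous c-MAF knockout groups, named KO-1-hetero and KO-8-hetero here, were compared by RNA sequencing of mouse colorectal tissue. The members are the 6 tumor libraries, of 24 in the series, whose titles begin with 1 or 8 and carry the words hetero and ko, with 3 libraries in each group. Both groups carry the genotype label c-MAF_KO, and all 24 libraries, wild types included, came from mice treated with AOM/DSS. Expression is given in FPKM (fragment counts scaled for transcript length and for library depth). Of the 24346 gene symbols listed, 12975 had at least 1 FPKM in at least 3 of the 6 tumor libraries and were tested. A difference is always KO-1-hetero minus KO-8-hetero on the log2(FPKM + 1) scale, with the standard error (SE) of the limma fit and a Benjamini-Hochberg adjusted p, tested against a threshold of 0.05. This scale understates differences of genes with low values.

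For the same 2 groups, 2 normal tissue libraries each were compared in the same fit. The 4 WT-young tumors (genotype label WT), the 3 KO-8-homo tumors and the WT-old tumor show the range of a gene elsewhere. All 24 libraries entered the same fit, so the groups outside the comparison also set its estimate of the spread. The labels explain neither the leading numbers 1 and 8, nor the deleted allele, nor any promoter that drives a recombinase. Strain, sex, age of the heterozygous mice, hour of tissue collection and the animal behind each library are not among the labels used here. The p-values therefore measure the spread between libraries within the groups of the fit, and libraries may share an animal.

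AOM is azoxymethane, a carcinogen, and DSS is dextran sulfate sodium, a polymer that injures the colon lining, so that tumors of the pair arise in inflamed epithelium with an active Wnt pathway. Maf encodes c-MAF, a transcription factor of the basic leucine zipper family that is used by T cells, macrophages and lens cells. The comparison asks whether tumors of 2 knockout groups of the same zygosity are alike, and the genes that separated them best belong to the circadian clock. In the clock, Arntl (BMAL1) and Clock form an activator that binds E-boxes of Per, Cry, Nr1d1, Dbp and other genes. Their products feed back, Per and Cry on the activator and the nuclear receptors Nr1d1 and Nr1d2 (REV-ERB) on Arntl, so that many of these transcripts cycle over the day.

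The libraries of the KO-8-hetero group were less alike than those of the other group. Pearson correlations of log2 values across genes were 0.967 to 0.977 among KO-1-hetero tumors and 0.902 to 0.926 among KO-8-hetero tumors. KO-8-hetero tumor replicate 2 held genes of stratified squamous epithelium, with Krt14 at 3170 FPKM, Krt13 at 3230 FPKM and Krt10 at 936 FPKM. The summed level of the squamous list was 14000 FPKM in this library and 25.8 to 78.2 FPKM in the other 5. KO-8-hetero tumor replicate 1 stood apart by the Paneth cell defensin Defa24 (3340 FPKM) and by the Wnt targets Axin2 (94.7 FPKM) and Notum (148 FPKM). Replicate 3 of each group stood apart from its group by the secreted lectin Reg3b (340 FPKM in KO-1-hetero, 1000 FPKM in KO-8-hetero) and by Retnlb (769 and 1120 FPKM). Apol10a was also among the genes that set replicate 3 of each group apart, at 116 FPKM in KO-8-hetero. Replicate 3 of each group had the noncoding X-linked transcript Xist near 49 FPKM, at 49.9 and 48.8, and the other 4 tumors had at most 0.0621 FPKM. The 4 normal tissue libraries of the 2 groups had it at 7.38 to 30.3 FPKM. The Y-linked gene Ddx3y was at 9.43 to 12.5 FPKM in replicates 1 and 2 of both tumor groups. It was at most 0.0454 FPKM in replicate 3 of each group and in the 4 normal libraries. Tumor against normal tissue is therefore mixed in part with sex in these groups. Relative depth was 0.848 to 1.17 of the median library in KO-1-hetero and 1.01 to 1.87 in KO-8-hetero tumors (exact permutation p 0.4, two-sided, n = 3 and 3, smallest possible p 0.1). The epithelial marker Epcam was at 596 to 922 FPKM in the 6 tumors. The summed level of 20 Wnt target and feedback genes was 310 to 1050 FPKM in these tumors and 99.4 to 142 FPKM in the normal tissue of the same groups.

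**Figure D1:**
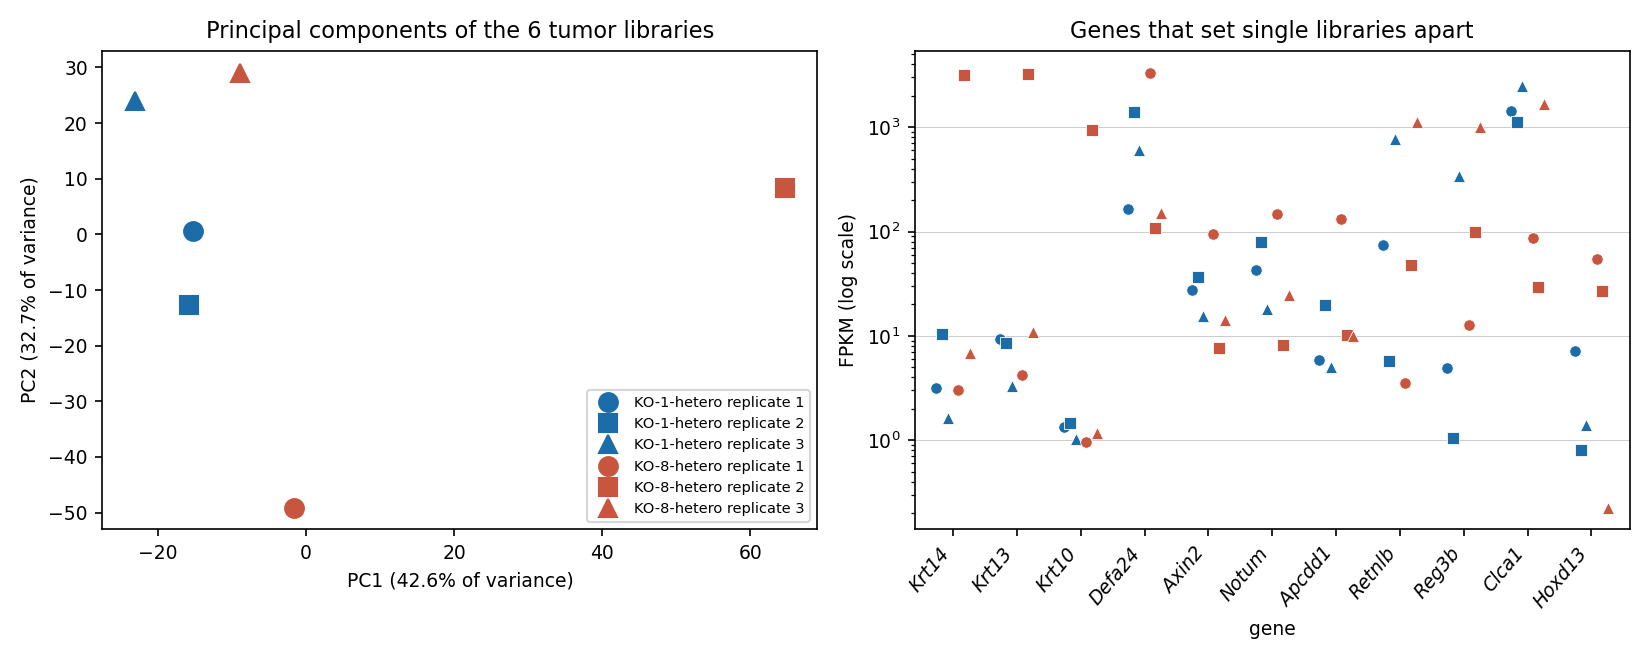
Left, the first 2 principal components (42.6% and 32.7% of the variance) of log2(FPKM + 1) in the 6 tumor libraries; right, FPKM on a log axis for genes that set a library apart, 1 symbol per library. KO-8-hetero replicate 2 lies at 64.7 on the first component and is the library with Krt14 above 3000 FPKM, while replicate 3 of each group lies at the top of the second.

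With all 6 tumors, limma called 0 of 12975 genes (0%) at an adjusted p below 0.05, with 1274 genes (9.82%) at an unadjusted p below 0.05. Of these, 649 (5%) were higher and 625 (4.82%) lower in KO-1-hetero. The smallest adjusted p was 0.0758, and 8 genes had one below 0.1. Among them were the clock genes Nr1d1, Dbp and Nr1d2, the cold-inducible RNA-binding gene Rbm3, the serine protease Prss22, the Wnt ligand Wnt2b and the olfactory receptor gene Olfr56. The 3 values of each group did not overlap for 1748 genes (13.5%), of which 813 (6.27%) were higher and 935 (7.21%) lower in KO-1-hetero. These shares over all tested genes are the background of the list counts below, which were not tested against them. On simulated data of the same size, the fit recovered 63.8% of genes changed by 1 and 93.4% of genes changed by 2 on the log2 scale, with 3.87% false calls. The simulated spread of a gene came from the fit over all 24 libraries. The KO-8-hetero tumors were less alike than the KO-1-hetero tumors, so recovery may be lower in the real comparison. The count rose to 156 (75 higher, 81 lower) without KO-8-hetero tumor replicate 3 and to 26 (2 higher, 24 lower) without replicate 1 of that group, and it was 0 without each of the other 4 tumors. No tumor gene named below passed the threshold with all 6 libraries, so tumor values are given by library and by whether the groups overlap.

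The clock genes were read in full: 13 of the 15 listed were tested, and Hlf and Bhlhe41 were too low. In tumors, 8 of the 13 had an unadjusted p below 0.05, 3 higher and 5 lower in KO-1-hetero, and these 8 were also the ones without overlap. The shares over all tested genes were 9.82% for that p and 13.5% for no overlap. Over the 13 genes the median difference was -0.34, and -0.13 without KO-8-hetero tumor replicate 2, against -0.007 over all tested genes. They lay on both sides. The REV-ERB genes and the output factors Dbp, Tef and Ciart were lower in KO-1-hetero, and Arntl, Cry1 and Per2 were higher.

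The promoters of 3 of these genes are shown because they hold the E-box that the Arntl and Clock pair is known to bind, once or more, close to the start of transcription. They are the 250 bases before a RefSeq start site (GRCm38.p6, the same build as the mm10 of the processing notes), written 5′ to 3′ on the strand of the gene, with CACGTG in capitals. The motif reads the same on both strands, and 1978 of all 32851 windows of this length (6.02%) hold it. Ciart, on the minus strand at chr3:95882229-95882478, has 3 copies that begin 116, 58 and 44 bases before the start.
Ciart: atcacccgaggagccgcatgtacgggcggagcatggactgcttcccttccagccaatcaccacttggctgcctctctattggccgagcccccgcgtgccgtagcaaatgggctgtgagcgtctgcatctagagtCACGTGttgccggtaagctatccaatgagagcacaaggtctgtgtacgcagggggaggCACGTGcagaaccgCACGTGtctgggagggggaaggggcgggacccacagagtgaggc
Tef has a copy 127 bases before the start in the window at chr15:81802423-81802672 on the plus strand, and another start site of Tef has a copy as well.
Tef: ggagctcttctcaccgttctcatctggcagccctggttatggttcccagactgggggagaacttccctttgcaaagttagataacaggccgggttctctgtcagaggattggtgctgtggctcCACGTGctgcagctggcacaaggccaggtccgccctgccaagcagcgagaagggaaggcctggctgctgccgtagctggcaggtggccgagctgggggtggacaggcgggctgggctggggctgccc
Cry1, on the minus strand at chr10:85185055-85185304, has a copy 60 bases before its start.
Cry1: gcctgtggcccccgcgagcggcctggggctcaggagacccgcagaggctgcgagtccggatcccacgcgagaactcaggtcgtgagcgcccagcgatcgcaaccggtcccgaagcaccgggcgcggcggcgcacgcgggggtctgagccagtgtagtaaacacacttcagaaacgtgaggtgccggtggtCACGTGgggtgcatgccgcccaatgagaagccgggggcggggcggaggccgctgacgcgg
Of the 13 listed genes with a window, 5 had CACGTG, the other two being Bhlhe41 (153 bases before the start) and Per1 (166 bases). The letters were not in the 250-base windows of Nr1d1, Dbp, Nr1d2, Arntl, Clock, Npas2, Per3 and Cry2, which says nothing of sites elsewhere in those genes. The windows of Ciart and Tef, lower in KO-1-hetero, and that of Cry1, higher there, thus hold the same 6 letters. The Per3 window holds 2 copies of TTATGTAA, searched on both strands, a variant of the element bound by Dbp, Tef and Hlf, found in 269 windows (0.819%). AGGTCA, the core of the element bound by REV-ERB receptors, also searched on both strands, was in a window of Nr1d2, of Per1 and of Clock, and in 4607 of all windows (14%). TTACGTAA, the palindrome bound by Dbp, Tef and Hlf, was in none of the 13 and in 37 of all windows (0.113%).

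Nr1d1, the gene of REV-ERB alpha on chr11:98767932-98775377, measured 1.90, 1.55 and 1.44 FPKM in KO-1-hetero tumors and 10.6, 15.9 and 13.9 FPKM in KO-8-hetero tumors (replicates 1 to 3). Each KO-8-hetero tumor exceeded each KO-1-hetero tumor, and the ratio of the means was 8.28. The difference was -2.45 (SE 0.409, limma adjusted p 0.0758). WT-young tumors ranged from 8.02 to 28 FPKM and KO-8-homo tumors from 4.54 to 13.5 FPKM, so the KO-1-hetero tumors had the lowest values of these groups. The second REV-ERB gene, Nr1d2, was at 7.23, 8.47 and 5.88 FPKM against 21.1, 19.1 and 14.1 FPKM (difference -1.22, SE 0.228, limma adjusted p 0.0876). Here too WT-young (16.3 to 23.8 FPKM) and KO-8-homo tumors (13.4 to 15.8 FPKM) lay with the KO-8-hetero tumors and above all KO-1-hetero tumors.

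Dbp, a leucine zipper activator of clock output, was at 1.93, 1.58 and 1.15 FPKM against 8.37, 8.91 and 6.35 FPKM. The means differed 5.06-fold without overlap, a difference of -1.80 (SE 0.317, limma adjusted p 0.0758). Its relative Tef was at 11, 10.6 and 6.40 FPKM against 19.1, 21.5 and 11.5 FPKM, the same order with a narrow gap. Ciart, which encodes a repressor of the Arntl and Clock pair, was at 0.781, 1.53 and 0.945 FPKM against 3.90, 6.92 and 2.89 FPKM (difference -1.37, SE 0.302, limma adjusted p 0.203). For Dbp and Ciart the homozygous tumors did not lie with KO-8-hetero: KO-8-homo ranged from 1.69 to 3.49 FPKM for Dbp and from 1.06 to 2.08 FPKM for Ciart, both overlapping KO-1-hetero.

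On the higher side, Arntl was at 9.85, 10.9 and 14 FPKM in KO-1-hetero and 3.38, 5.03 and 5.30 FPKM in KO-8-hetero tumors, a 2.54-fold ratio of means. The difference was 1.18 (SE 0.334, limma adjusted p 0.232). Cry1, a repressor of the loop, was at 8.91, 8.40 and 9.18 FPKM against 5.31, 5.01 and 3.69 FPKM (0.80, SE 0.178, limma adjusted p 0.203). Its values varied little within KO-1-hetero, and WT-young tumors (4.19 to 4.72 FPKM) lay with KO-8-hetero. Per2, which pairs with Cry proteins, was at 10.3, 8.31 and 6.53 FPKM against 5.18, 6.10 and 2.88 FPKM (0.74, limma adjusted p 0.429). The groups overlapped for Clock, Npas2, Per1, Per3 and Cry2. Per1, for example, was at 4.72, 5.38 and 5.35 FPKM against 9.14, 10.5 and 4.01 FPKM, where KO-8-hetero tumor replicate 3 lay below all 3 KO-1-hetero tumors.

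**Figure D2:**
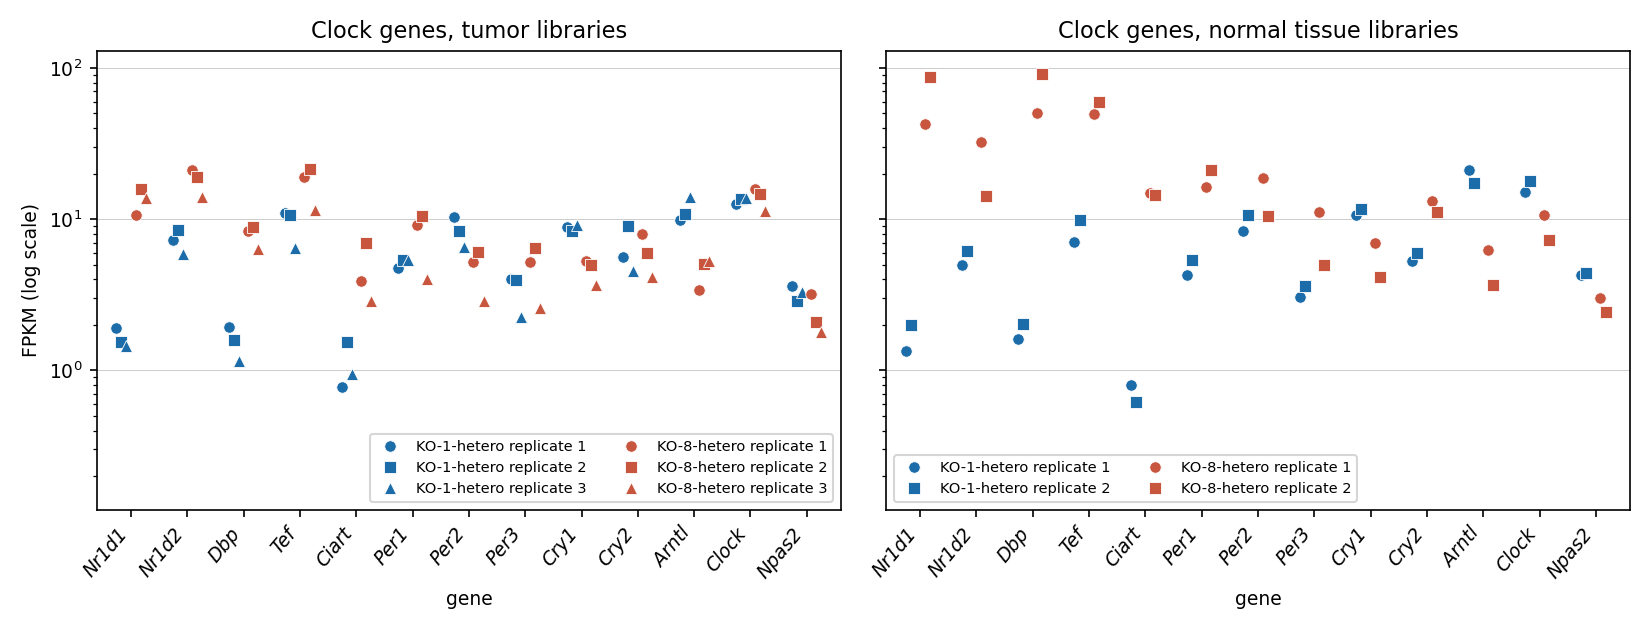
FPKM on a log axis for 13 clock genes in tumors (left, 3 libraries per group) and normal tissue (right, 2 per group), 1 symbol per library. Nr1d1, Dbp, Nr1d2, Tef and Ciart lie lower in KO-1-hetero in both tissues, and Arntl and Cry1 lie higher.

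In normal tissue the same comparison rests on 4 other libraries, which share the fit, and so its estimate of the spread, with the tumors. Limma called 1308 genes (10.1%) between the normal tissue of KO-1-hetero and KO-8-hetero, 691 (5.33%) higher and 617 (4.76%) lower. With median-ratio scaling these were 800 higher and 453 lower, and with quantile normalization 375 and 145. Of the 13 clock genes 9 were called, Arntl, Cry1 and Clock as risen and Nr1d1, Nr1d2, Dbp, Tef, Ciart and Per1 as fallen in KO-1-hetero. Nr1d1 measured 1.35 and 2 FPKM against 42.4 and 87.8 FPKM (-4.55, limma adjusted p 0.000182), and Dbp 1.61 and 2.04 FPKM against 50 and 91.4 FPKM (-4.61, limma adjusted p 1.35e-05). Ciart was at 0.802 and 0.621 FPKM against 14.8 and 14.4 FPKM, and Arntl at 21.3 and 17.4 FPKM against 6.23 and 3.67 FPKM. In each of these genes the 2 groups were far apart beside the distance within a group. With limma array weights, which give each library its own weight, 0 genes were called in normal tissue and 0 of the clock genes. Without KO-1-hetero normal replicate 1, 30 genes were called, 4 of them clock genes, and without KO-8-hetero normal replicate 2, 100 genes, 5 of them clock genes. Without KO-1-hetero normal replicate 2 the counts were 600 and 7, and without KO-8-hetero normal replicate 1 they were 4231 and 9.

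Normal tissue of the other groups placed these values. WT-young normal tissue lay with KO-8-hetero for Dbp (33.2 to 54.8 FPKM) and Ciart (10.7 to 21.6 FPKM). KO-8-homo normal tissue lay nearer to KO-1-hetero, with Dbp at 2.74 to 6.75 FPKM, Ciart at 0.961 to 1.54 FPKM and Tef at 7.01 to 9.89 FPKM. For Nr1d1, KO-8-homo normal tissue was in between, at 20 to 21.1 FPKM.

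The mean of the tumor and normal differences, with 5 libraries against 5, was tested in the same fit. It called 473 genes (3.65%), 264 (2.03%) higher and 209 (1.61%) lower. With median-ratio scaling the split was 340 higher and 167 lower, and with quantile normalization 84 and 49. Of the 13 clock genes, 8 were called: Arntl and Cry1 rose, and Nr1d1, Nr1d2, Dbp, Tef, Ciart and Per1 fell in KO-1-hetero. The mean difference was -3.20 for Dbp (limma adjusted p 4.29e-06), -3.50 for Nr1d1 (2.73e-05) and -1.50 for Nr1d2 (0.000646). These 3 genes stayed past the threshold under each of the 20 alternatives run for this contrast, while the clock count ranged from 3 with array weights to 9 without KO-8-hetero normal replicate 1. Over all genes the count depended on single libraries. It was 245, 177 and 39 without KO-1-hetero tumor replicate 1, 2 or 3, 734, 68 and 598 without KO-8-hetero tumor replicate 1, 2 or 3, 6 and 283 without KO-1-hetero normal replicate 1 or 2, and 3343 and 30 without KO-8-hetero normal replicate 1 or 2. The clock count was 8 without the squamous tumor library and 5 without KO-1-hetero normal replicate 1 or KO-8-hetero normal replicate 2. Because a tumor and a normal library may come from the same mouse, these p-values may be too small. Of the tumors, only replicate 3 of each group shared the Xist and Ddx3y pattern of the normal libraries.

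Among temperature-responsive genes, single members separated the groups. Rbm3, a cold-inducible RNA-binding protein, was at 119, 113 and 158 FPKM in KO-1-hetero and 401, 458 and 217 FPKM in KO-8-hetero tumors. The means differed 2.76-fold (-1.40, SE 0.221, limma adjusted p 0.0758). Its relative Cirbp was at 16.3, 17.2 and 15.1 FPKM against 65.0, 46.0 and 23.1 FPKM (-1.29, SE 0.321, limma adjusted p 0.203). For both genes KO-8-hetero tumor replicate 3 lay nearest to KO-1-hetero, and WT-young tumors, at 358 to 537 FPKM for Rbm3 and 53.2 to 69.8 FPKM for Cirbp, lay with the other 2 KO-8-hetero tumors. Hsph1, a large heat shock chaperone, went the other way, at 29.2, 40.9 and 48.8 FPKM against 12.5, 9.21 and 18.5 FPKM (1.52, SE 0.416, limma adjusted p 0.21). Hsp90aa1, the inducible HSP90, was at 174, 249 and 237 FPKM against 143, 123 and 147 FPKM, again without overlap.

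Of the 11 genes of the heat shock list, which includes Rbm3 and Cirbp, 2 were higher and 2 lower at an unadjusted p below 0.05, with a median of 0.28. Over all tested genes, 5% were higher and 4.82% lower at that p. The most abundant member, the constitutive chaperone Hspa8, overlapped between the groups, as did Dnajb1 and Hspd1. Over both tissues Hsph1 rose by 1.30 (limma adjusted p 0.0385), Rbm3 fell by 1.13 (0.00713) and Cirbp fell by 1.18 (0.026). The Rbm3 call was lost with array weights and without KO-1-hetero normal replicate 1, and those of Cirbp and Hsph1 in 7 and 10 of 20 alternatives, the squamous library left out among them. Hspa4l, a chaperone of the same HSP110 family as Hsph1, was at 21.5, 22.9 and 18.8 FPKM against 12.6, 15.1 and 9.63 FPKM in tumors. It rose over both tissues by 1.02 (limma adjusted p 0.00483), a call lost in the same 2 alternatives as that of Rbm3.

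**Figure D3:**
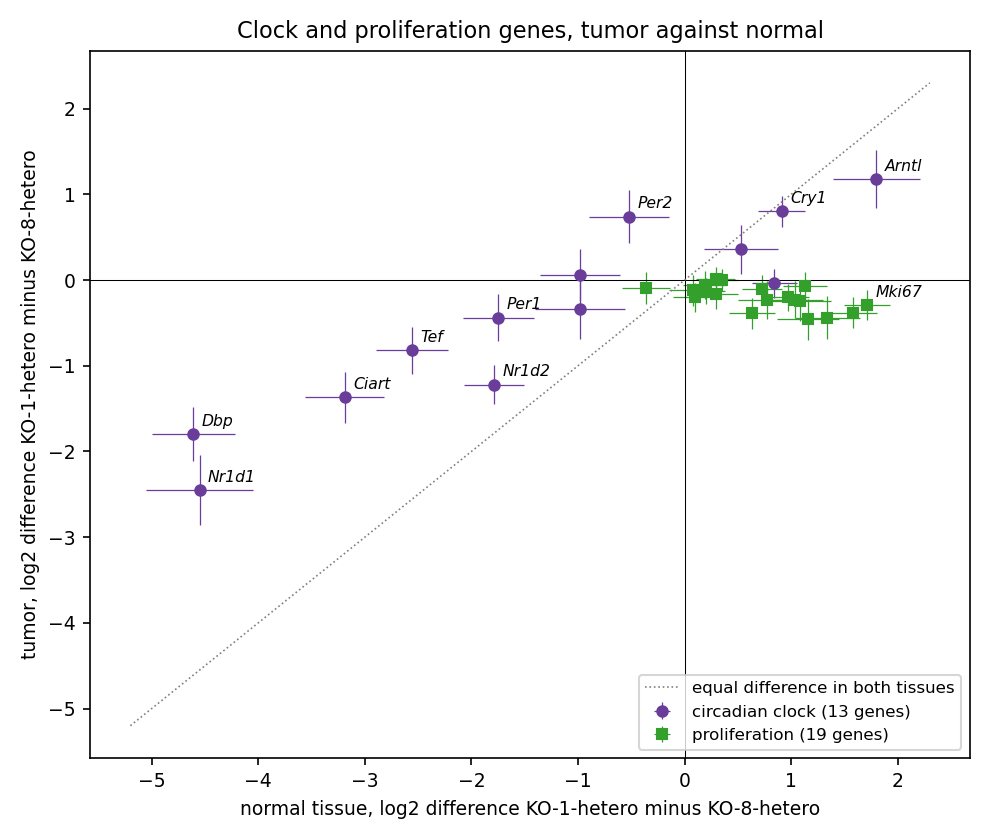
Log2 difference between KO-1-hetero and KO-8-hetero in tumors (vertical) against normal tissue (horizontal) for 13 clock and 19 proliferation genes; bars are the SE of each difference and the dotted line marks equal differences. Dbp (-4.61 in normal tissue, -1.80 in tumors) and most other clock genes share a sign in both tissues, and proliferation genes such as Mki67 (1.71 and -0.29) do not.

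The tumor and normal differences were not the same for all genes. The interaction (tumor difference minus normal difference) called 174 genes (1.34%), 27 (0.208%) above 0 and 147 (1.13%) below 0, and 166 of the 174 were also called in normal tissue. Single libraries moved this count to between 8 (without KO-1-hetero normal replicate 1) and 3088 (without KO-8-hetero normal replicate 1), with 62 without the squamous tumor library. With a term for libraries with Xist of at least 1 FPKM, the interaction called 149 genes. Of the 19 proliferation genes, 9 rose in KO-1-hetero normal tissue and 0 fell, while in tumors 0 were called and the median was -0.20. Mki67, a marker of cycling cells, was at 25.9 and 22.6 FPKM against 5.44 and 8.17 FPKM in normal tissue (1.71, limma adjusted p 0.000459). In tumors it was at 22.1, 16.4 and 28.8 FPKM against 24.4, 27.4 and 29.5 FPKM, with overlap. The count of 9 was 2 without KO-1-hetero normal replicate 1, 2 without KO-8-hetero normal replicate 2, 6 without KO-1-hetero normal replicate 2 and 0 with array weights. The KO-8-hetero normal libraries also held more adipocyte RNA, with a summed list of 381 to 426 FPKM against 121 to 211 FPKM. The smooth muscle sums overlapped there, at 3710 to 5260 FPKM against 1860 to 3960 FPKM. In tumors all 12 smooth muscle genes were higher in KO-1-hetero, with a median of 0.66 and 1 without overlap. Without KO-8-hetero tumor replicate 2 the median was 1.22, and 9 did not overlap. Their part in the result was not tested.

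Over all genes, 268 of the 813 genes that were higher without overlap in KO-1-hetero tumors (33%) were also higher without overlap in normal tissue, and 148 (18.2%) were lower. Among the 935 on the lower side, 295 (31.6%) had the same direction and 198 (21.2%) the opposite. Of all 12975 genes, 2.07% were higher and 2.27% lower without overlap in both tissues, and 2.67% had opposite directions. With 2 values a side in normal tissue, 51.4% of all genes did not overlap there.

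Several B cell genes had no overlap between the tumors of the groups. All 12 listed genes were in the files and 9 were tested. Cxcr5, Blk and Bank1 entered only through the KO-1-hetero tumors, in which they are high, so counts over the list support nothing by themselves. Cd79a, a signalling chain of the B cell receptor, was at 58.7, 22.7 and 28.6 FPKM in KO-1-hetero and 13.2, 1.89 and 8.71 FPKM in KO-8-hetero tumors (2.24, SE 0.632, limma adjusted p 0.232). Ms4a1 (CD20) was at 14.8, 2.62 and 5.19 FPKM against 1.64, 0.443 and 0.41 FPKM (2.01, SE 0.479, limma adjusted p 0.203). The transcription factor gene Spib was at 11.7, 2.11 and 4.89 FPKM against 1.29, 0.35 and 0.953 FPKM. KO-1-hetero tumor replicate 1 was the highest library for each of these 3 genes, and the groups did not overlap in any of them. Cd22 was the tested member with overlap, at 8.46, 1.89 and 3.55 FPKM against 1.91, 0.281 and 0.939 FPKM.

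The summed B cell list was 172, 47.8 and 73.1 FPKM in KO-1-hetero tumors and 28.2, 6.81 and 17.2 FPKM in KO-8-hetero tumors. It was 4.87 to 23.1 FPKM in WT-young and 13.2 to 18.7 FPKM in KO-8-homo tumors, all below the KO-1-hetero tumors. The single WT-old library from a tumor was above all of them, at 1370 FPKM. The 6 tested members other than Cxcr5, Blk and Bank1 had a median difference of 1.91, and of 1.56 without KO-8-hetero tumor replicate 2, and 5 of the 6 did not overlap. Ms4a1, Spib and Cd22 were below 1 FPKM in most KO-8-hetero tumors and also met the filter through the KO-1-hetero tumors. The values without Cxcr5, Blk and Bank1 are therefore not free of that selection, and support nothing by themselves either. Fewer B cells and less B cell RNA per cell cannot be told apart in bulk tissue, here and for the cell types below. Normal tissue gave sums of 59.3 to 121 FPKM against 34.3 to 43.3 FPKM, and 0 of the 9 genes were called there. Vpreb3, a surrogate light chain gene also used by B cells, was named by its calls, at 6.96, 5.11 and 4.68 FPKM against 2.36, 0.69 and 2.08 FPKM in tumors. It rose in normal tissue by 1.46 (limma adjusted p 0.0318), a call lost with no expression filter, with quantile normalization, with array weights and without KO-1-hetero normal replicate 1 or KO-8-hetero normal replicate 2.

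The signals that organise B cell follicles followed the same order in part. Cxcl13, the chemokine that attracts B cells through Cxcr5, was at 50.4, 23.3 and 34.2 FPKM against 8.73, 14.2 and 7.07 FPKM (1.73, SE 0.529, limma adjusted p 0.255). Ltb (lymphotoxin beta) was at 18.8, 9.64 and 19 FPKM against 7.59, 1.49 and 4.86 FPKM, and Tnfsf13b (BAFF, a B cell survival factor) at 22.9, 15.8 and 20.9 FPKM against 12.1, 10.4 and 13.0 FPKM. These 3 of the 8 tested genes of the follicle stroma list did not overlap, and the chemokines Ccl19 and Ccl21a, which attract T cells, did. Over all tested genes, 6.27% were higher without overlap.

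Plasma cell genes differed less evenly. Jchain, which joins IgA and IgM subunits, was at 676, 855 and 759 FPKM against 445, 116 and 605 FPKM. Mzb1, an antibody folding factor, was at 54.2, 49.9 and 43.5 FPKM against 20.9, 7.24 and 28.1 FPKM (1.53, SE 0.479, limma adjusted p 0.272). Of 10 tested genes, 4 were higher and 2 lower in KO-1-hetero without overlap, with a median of 0.82, and of 0.44 without KO-8-hetero tumor replicate 2, the library with the least Jchain and Mzb1. The 2 lower ones were Sdc1 (121, 111 and 106 FPKM against 128, 258 and 149 FPKM) and Prdm1 (2.72, 2.52 and 2.79 FPKM against 4.18, 6.08 and 3.98 FPKM). Both are known in plasma cells and in epithelium. Over all tested genes, 6.27% were higher and 7.21% lower without overlap.

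All 11 tested T and NK cell genes and all 10 MHC class II genes had a positive difference, but most overlapped between the groups. Over all tested genes, 6.27% were higher without overlap and 5% were higher at an unadjusted p below 0.05. The counts below were not tested against these shares. Cd3e, a chain of the T cell receptor complex, was at 3.94, 3.11 and 7.36 FPKM against 2.86, 0.832 and 1.62 FPKM (1.07, SE 0.295, limma adjusted p 0.218). Of 11 tested T and NK cell genes, 6 were higher at an unadjusted p below 0.05 and 4 did not overlap, with a median of 0.67, and of 0.40 without KO-8-hetero tumor replicate 2. The cytotoxic granule genes Gzma and Gzmb overlapped. Among 10 MHC class II genes, 6 were higher at an unadjusted p below 0.05 and 4 did not overlap, with a median of 1.00, and of 0.49 without KO-8-hetero tumor replicate 2. H2-Ob, a chaperone chain of class II loading used by B cells, was at 9.78, 2.19 and 4.90 FPKM against 1.36, 0.356 and 0.758 FPKM. The 12 class I and immunoproteasome genes had a median of 0.01 and 0 at an unadjusted p below 0.05.

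Myeloid genes split by type. The complement gene C1qa, made by tissue macrophages, was at 169, 192 and 258 FPKM in KO-1-hetero and 154, 75.1 and 116 FPKM in KO-8-hetero tumors, and Ly6c2, of inflammatory monocytes, at 29.7, 28.1 and 49.2 FPKM against 10.3, 9.56 and 24.3 FPKM. Cd68 and Csf1r, 2 further macrophage genes, overlapped. Of the 11 tested members of the macrophage and monocyte list, 4 were higher at an unadjusted p below 0.05, against 5% of all tested genes. The mast cell protease gene Mcpt1 was at 284, 50.6 and 185 FPKM against 40.8, 1.80 and 96.0 FPKM, with overlap.

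Neutrophil and interleukin-1 genes had the opposite sign. Of 12 tested genes, 8 were lower in KO-1-hetero at an unadjusted p below 0.05 and 5 did not overlap. Over all tested genes, 4.82% were lower at that p and 7.21% were lower without overlap. The median was -1.31, and -0.80 without KO-8-hetero tumor replicate 2, the squamous library. Cxcl2, a neutrophil chemokine, was at 5.03, 1.87 and 1.60 FPKM against 16.3, 35.4 and 5.99 FPKM (-2.21, SE 0.63, limma adjusted p 0.236), and Cxcl5, another, at 25.3, 24.7 and 12.6 FPKM against 42.9, 145 and 52.7 FPKM. The cytokine gene Il1a was at 3.13, 2.70 and 2 FPKM against 4.26, 14 and 5.32 FPKM. S100a8, a subunit of the neutrophil protein calprotectin, was at 88.9, 32.8 and 29.8 FPKM against 84.7, 841 and 168 FPKM, and it and Il1b overlapped. The summed list was 294, 152 and 111 FPKM against 265, 2090 and 525 FPKM. WT-young tumors spanned 162 to 714 FPKM, KO-8-homo tumors 543 to 1860 FPKM, and the WT-old tumor, a single library, had 56.8 FPKM. KO-1-hetero replicates 2 and 3 were below all WT-young and KO-8-homo tumors, and replicate 1 was within the WT-young range. In normal tissue the list was low in every heterozygous library (7.45 to 19.3 FPKM), with a median difference of 0.14.

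Some secreted and protease genes named by their p were also lower in KO-1-hetero, without a direction shared by the lists nearest to them. Of the 13 tested Reg and antimicrobial genes, 2 were higher and 2 lower without overlap, and the 13 genes of fetal-like repair had a median of -0.42, and of -0.04 without the squamous library. Lcn2 (lipocalin 2, which binds bacterial siderophores) was at 59.3, 34.8 and 22.7 FPKM against 145, 145 and 158 FPKM (-2.02, SE 0.51, limma adjusted p 0.203). KO-8-hetero values were close to each other, and the difference was -2.04 without the squamous library. Saa3 (serum amyloid A3) was at 191, 105 and 158 FPKM against 397, 862 and 1240 FPKM (-2.35, SE 0.541, limma adjusted p 0.203). Prss22, an epithelial serine protease, was at 3.17, 4.92 and 2.44 FPKM against 9.74, 72.6 and 19 FPKM (-2.51, SE 0.447, limma adjusted p 0.0758), and at -1.74 without the squamous library. Mmp13, a collagenase, was at 8.88, 5.56 and 8.22 FPKM against 16.8, 199 and 64.6 FPKM. Lbp, which binds bacterial lipopolysaccharide, was at 4.44, 3.13 and 3.84 FPKM against 9.72, 17.4 and 6.09 FPKM and fell over both tissues by 0.91 (limma adjusted p 0.035), past the threshold in 13 of 20 alternatives and not without the squamous library. Sprr2h, a cornified envelope gene, was at 0.566, 0.667 and 1.90 FPKM against 7.32, 71.4 and 7.10 FPKM. For Prss22, Mmp13, Sprr2h and Arg1 the highest library was the squamous one, and the lowest KO-8-hetero tumor still exceeded all KO-1-hetero tumors. The part of squamous tissue in these results was not tested beyond leaving that library out.

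Interferon genes did not share a direction. Gbp2, a guanylate-binding protein induced by interferon gamma, was at 59.3, 25.3 and 60.3 FPKM against 113, 215 and 103 FPKM (-1.58, SE 0.40, limma adjusted p 0.203), without overlap. It was at 107 to 284 FPKM in WT-young and 15 to 23.7 FPKM in KO-8-homo tumors. Ifi44, an interferon-induced gene outside the list, went the other way without overlap, at 24.3, 10.9 and 6.80 FPKM against 5.76, 2.29 and 2.90 FPKM. Isg15, a target of type I interferon, was at 126, 68.4 and 37.2 FPKM against 42.2, 20.2 and 32.3 FPKM, with overlap. Of 17 tested interferon response genes, 2 were higher and 3 lower at an unadjusted p below 0.05, against 5% and 4.82% of all tested genes.

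**Figure D4:**
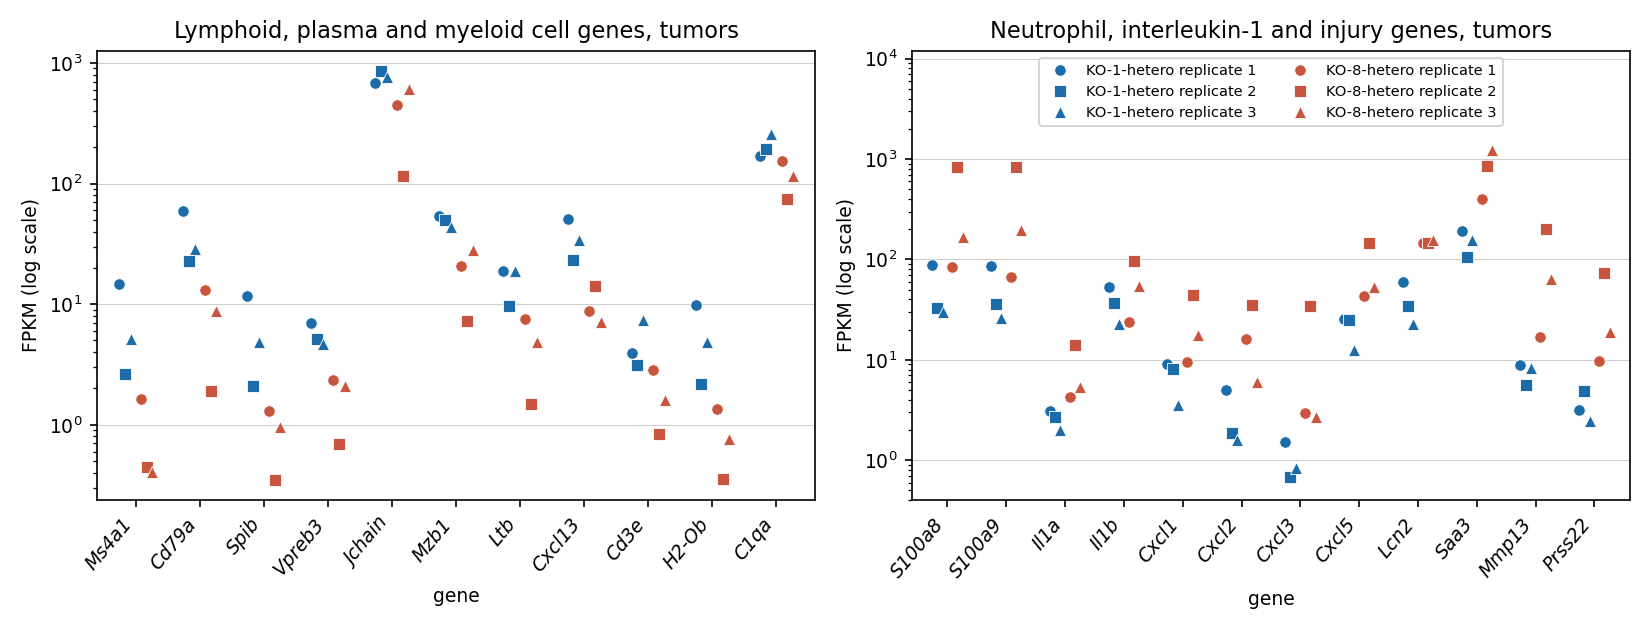
FPKM on a log axis for immune and injury genes in the 6 tumors, 1 symbol per library. Ms4a1, Cd79a and Spib lie higher in each KO-1-hetero tumor, and Lcn2, Saa3 and Cxcl2 lie lower, while S100a8 and Il1b overlap.

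Epithelial markers overlapped with 1 exception. Epcam was at 636, 728 and 867 FPKM in KO-1-hetero and 596, 642 and 922 FPKM in KO-8-hetero tumors, and the 10 epithelial markers had a median of -0.04. Krt18, a simple epithelial keratin, was the member without overlap, at 364, 465 and 420 FPKM against 487, 718 and 674 FPKM. Of 11 tested stem cell genes, 4 were higher at an unadjusted p below 0.05 and 3 did not overlap, with a median of 0.43, and of 0.19 without KO-8-hetero tumor replicate 2. Lrig1, a brake on receptor tyrosine kinases that marks stem cells, was at 23.8, 21.7 and 23.7 FPKM against 9.77, 12.2 and 17.1 FPKM (0.81, SE 0.171, limma adjusted p 0.167). Lgr5, the R-spondin receptor of crypt stem cells, was at 13.1, 14.8 and 8.71 FPKM against 7.94, 4.27 and 6.89 FPKM, and Rgmb, a BMP coreceptor, at 12.1, 11.4 and 10.7 FPKM against 7.70, 7.41 and 7.08 FPKM. These are the 3 without overlap. Over all tested genes, 6.27% were higher without overlap and 5% at an unadjusted p below 0.05. For Lgr5, WT-young (9.36 to 16.2 FPKM) and KO-8-homo tumors (17.3 to 23.2 FPKM) were at or above KO-1-hetero, so the KO-8-hetero tumors were the low ones.

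Wnt targets did not separate the groups. Of 20, 0 were higher and 1, Apcdd1, was lower at an unadjusted p below 0.05, with a median of 0.04, and of -0.41 without KO-8-hetero tumor replicate 2. Axin2, a feedback gene of the pathway, was at 27.7, 36.4 and 15.4 FPKM against 94.7, 7.62 and 14.1 FPKM. The spread lay within KO-8-hetero, between replicate 1 and the rest. The Wnt ligand gene Wnt2b, of stromal cells, was higher in KO-1-hetero by 1.08 (limma adjusted p 0.0856).

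Secretory lineages differed in part. Atoh1, the transcription factor that starts the secretory lineage, was at 20.9, 18.6 and 18.9 FPKM against 7.64, 3.55 and 14.5 FPKM (1.27, SE 0.384, limma adjusted p 0.255). The goblet cell gene Clca1 was at 1430, 1110 and 2500 FPKM against 86.2, 29.4 and 1660 FPKM, where KO-8-hetero tumor replicate 3 lay within KO-1-hetero. Chga (chromogranin A), of hormone-producing cells, was at 28.2, 30.7 and 9.08 FPKM against 2.85, 5.11 and 6.29 FPKM (1.92, SE 0.49, limma adjusted p 0.203). The hormone gene Insl5, of colonic L cells, was at 37.1, 13.4 and 20.1 FPKM against 1.26, 8.84 and 5.88 FPKM. These were the 2 of 8 tested enteroendocrine genes without overlap, and the list median was 1.24. Over all tested genes, 6.27% were higher without overlap.

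Further genes did not overlap, all but Cdkn1a outside the lists. Gstt1, a glutathione transferase, was at 24.2, 25.1 and 24.6 FPKM against 7.08, 12.7 and 13.5 FPKM (1.13, SE 0.228, limma adjusted p 0.143). Mia2, of the secretory cargo export machinery, was at 6.13, 7.70 and 4.75 FPKM against 12.9, 14.2 and 11.8 FPKM (-0.97, SE 0.198, limma adjusted p 0.143). Fam204a was at 4.38, 4.45 and 4.80 FPKM against 6.51, 6.70 and 6.97 FPKM. In these 3 genes the values within at least 1 group were close to each other. St6gal1, which adds sialic acid to N-glycans, was at 16, 18.8 and 12.3 FPKM against 7.78, 5.98 and 8.07 FPKM, and Lman2l, a lectin of the early secretory pathway, at 8.27, 9.17 and 8.42 FPKM against 5.37, 4.67 and 6.26 FPKM. Trim46, a microtubule-binding protein of the TRIM family, was at 7.03, 6.07 and 5.67 FPKM against 1.44, 2.18 and 4.34 FPKM. Eif4a2, a helicase of translation initiation, was at 108, 119 and 135 FPKM against 69.1, 70.2 and 96.2 FPKM. It rose over both tissues by 0.51 (limma adjusted p 0.0289), past the threshold in 14 of 20 alternatives and not without the squamous library. Cd83, of activated B and dendritic cells, was at 9.82, 11 and 11.2 FPKM against 6.24, 3.26 and 4.68 FPKM and rose over both tissues by 0.81 (limma adjusted p 0.0363), past the threshold in 10 of 20 alternatives and not without the squamous library. Lpcat4, a lysophospholipid acyltransferase, was at 31.3, 32.4 and 23.6 FPKM against 51.4, 58.5 and 61.1 FPKM, and Ccdc117 was higher in KO-1-hetero, by 0.58. Cdkn1a, the p53-inducible cell cycle inhibitor p21, was at 77.1, 92.9 and 74.0 FPKM against 118, 162 and 117 FPKM, and it fell over both tissues by 0.76 (limma adjusted p 0.0268), past the threshold in 12 of 20 alternatives and not without the squamous library. It was the member of the 18 p53 targets without overlap, and the list median was -0.05.

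**Figure D5:**
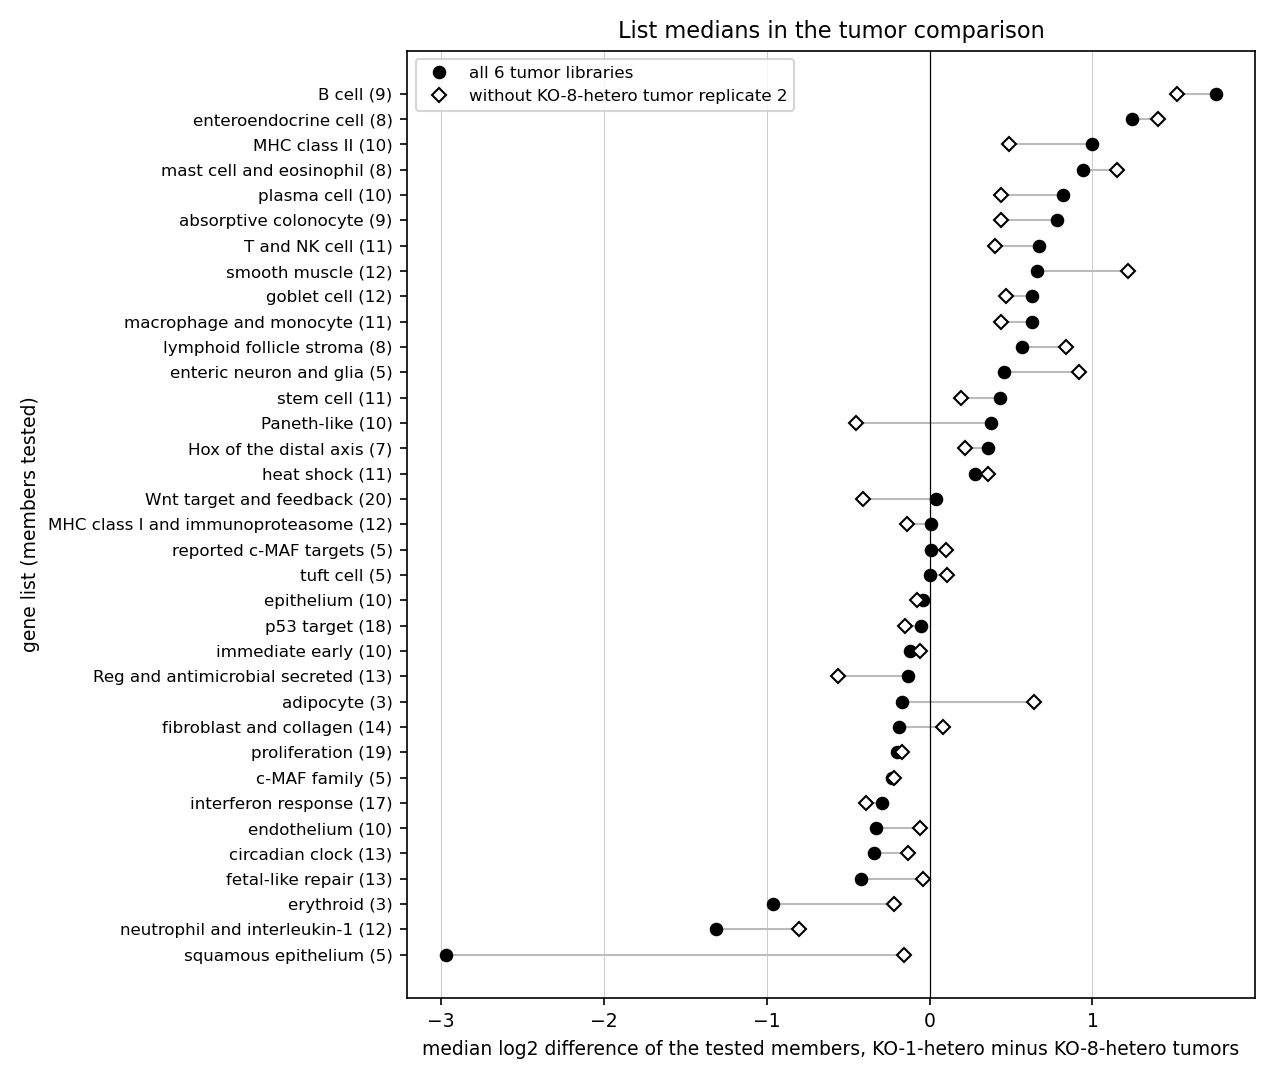
Median log2 difference (KO-1-hetero minus KO-8-hetero, tumors) over the tested members of 35 gene lists, with all 6 libraries (filled circles) and without KO-8-hetero tumor replicate 2 (open diamonds). The B cell list lies at 1.76 and 1.52, with at least 3 of its 9 members tested only for their KO-1-hetero values, and the squamous list moves from -2.97 to -0.16 when that library is left out.

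Maf itself, on chr8:115703253-115706894, did not separate the groups. It was at 4.43, 4.62 and 7.40 FPKM in KO-1-hetero and 5.21, 4.46 and 2.62 FPKM in KO-8-hetero tumors (0.35, SE 0.239, limma adjusted p 0.685), with overlap. The exact permutation p was 0.5 (two-sided, n = 3 and 3, smallest possible 0.1), and the sign changed, to -0.08, without replicate 3 of both groups. A value per gene cannot show whether transcripts of an altered allele were counted. Of its family, Maff and Mafk, small Maf proteins without an activation domain, did not overlap. Maff was at 6.76, 7.73 and 6.68 FPKM against 11.2, 12.4 and 10.5 FPKM (-0.61, SE 0.317, limma adjusted p 0.553), and Mafk at 13.8, 14.7 and 12.6 FPKM against 15.2, 16.2 and 17.0 FPKM (-0.23, limma adjusted p 0.837). Mafg overlapped and changed sign without KO-8-hetero tumor replicate 1 (to 0.209), and Mafa and Nrl were too low to test. Among reported c-MAF targets, 5 of 10 were tested, and the integrin gene Itgb7, used by gut lymphocytes, was at 9.91, 6.64 and 11.6 FPKM against 5.06, 2.56 and 5.13 FPKM.

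The genes around Maf on chromosome 8 were read for a local difference. Of the 20 neighbouring protein-coding genes, the nearest 10 on each side, 11 were tested. Wwox, an oxidoreductase gene at chr8:114439635-115352712, was the one without overlap. Wwox was at 4.19, 3.70 and 3.26 FPKM against 6.35, 4.60 and 4.58 FPKM in tumors (-0.38, SE 0.136, limma adjusted p 0.325). In normal tissue it fell by 0.61 (2.78 and 2.97 FPKM against 4.47 and 5.40 FPKM, limma adjusted p 0.0344), and over both tissues by 0.50 (0.0268). The normal call was lost with array weights and without KO-1-hetero normal replicate 1 or 2 or KO-8-hetero normal replicate 2, and the call over both tissues in 5 of 20 alternatives. The median over the 11 genes was 0.02, and 15.2% of the tested genes of chromosome 8 did not overlap in tumors, within the 11.8% to 16.7% of the chromosomes.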

How the data were processed

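RNA from mouse colorectal tumors and normal tissue was sequenced as stranded mRNA libraries, per the labels' protocols. The authors deposited 1 table of FPKM values per library. The submitters' processing notes name TopHat2 2.1.1, Bowtie2 2.2.8, SAMtools 0.1.18, Cuffdiff 2.2.1 and the mm10 build, and the annotation is not given in the sources used here. FPKM holds no read counts, so depth per gene is unknown; depth relative between libraries came from the smallest steps of low values.

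Libraries were grouped by title. Values were used as log2(FPKM + 1) for genes with at least 1 FPKM in at least 3 of the 6 heterozygous tumor libraries. All 24 libraries, in 10 groups, entered 1 limma fit (limma 3.58.1 in R 4.3.3, eBayes with an intensity trend, Benjamini-Hochberg adjustment over 12975 genes), with contrasts for tumor, for normal tissue, for their difference and for their mean. The labels tie no library to an animal, so no animal term was fitted. The fit was tested on simulated data, in 10 runs with 200 changed genes each. Single values were compared by an exact permutation test. Same-numbered libraries were checked for pairing: their deviations from the group means correlated at 0.07, -0.03 and 0.55. The value of the replicate 3 pair was the highest between the groups. Deviations from means of 3 libraries cannot decide whether the numbers pair the tumors, and the main fit used no pairing. RefSeq promoters and coordinates are of GRCm38.p6, and 23142 of 24346 symbols matched. Python 3.11.15 with pandas 2.3.3 and matplotlib 3.10.9 drew the figures.

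Named genes are the 12 per direction with the smallest p among tumor genes without overlap and with a group mean of at least 5 FPKM, up to 3 per list by p or by level, the 6 per direction with the smallest p over both tissues, up to 5 per library that stood apart, and the Maf family with Wwox. A few genes that these rules name are not reported here. Other list members given as examples were chosen after their values were seen. Members and the 36 lists were chosen with earlier results of these data known. Alternatives changed the pseudocount (0.1, 0.5), the filter, the scaling, the libraries in the fit, the variance model and each library in turn.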

Additional observations from a re-analysis of the deposited data

Results flagged for a closer look

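The interaction term found 174 genes whose difference between KO-1-hetero and KO-8-hetero was not the same in tumors and in normal tissue (limma adjusted p below 0.05 for tumor difference minus normal difference). It found 0 with limma array weights and 71 with quantile normalization. Dbp, the clock output factor, had an interaction of 2.81 (SE 0.501, limma adjusted p 0.0125): it was lower in KO-1-hetero in both tissues, by less in tumors (-1.80) than in normal tissue (-4.61). Lman2l, the secretory pathway lectin, had 0.88 (SE 0.202, limma adjusted p 0.0418), with 5.81 and 7.29 FPKM in KO-1-hetero normal tissue against 7.52 and 8.9 FPKM.

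Among proliferation genes 6 had an interaction below 0. The interaction was -1.97 for the topoisomerase gene Top2a (limma adjusted p 0.004), -2 for Mki67 (0.00282), -1.61 and -1.77 for the mitotic cyclin genes Ccnb2 (0.0418) and Ccnb1 (0.037), -1.2 for the spindle checkpoint kinase gene Bub1 (0.0364) and -1.17 for the condensin gene Ncapg (0.0317). Top2a was at 39.7 and 40.8 FPKM in KO-1-hetero normal tissue against 14.5 and 11.2 FPKM. In tumors it was at 34.8, 33.2 and 44.7 FPKM against 50, 45.3 and 51.3 FPKM, without overlap in the opposite direction. All 6 genes rose in KO-1-hetero normal tissue by the limma test, and none passed it in tumors. The part of transcript length and of tissue layers in these interactions was not tested.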

How the results depend on the processing

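The tumor count of 0 calls was 3 with a pseudocount of 0.1, 2 with 0.5, 1 with no filter, 8 with quantile normalization, 3 with the 6 tumor libraries alone, 1 with the 14 tumor libraries, 5 without replicate 3 of both groups, and 0 to 156 with 1 library left out; the cause was not tested. The normal count of 1308 was 851 with no filter, 520 with quantile normalization, 0 with array weights and 30 to 4231 with 1 library left out. The interaction count of 174 was 109 with no filter, 71 with quantile normalization, 76 without replicate 3 of both groups, 0 with array weights and 8 to 3088 with 1 library left out. The count of 473 over both tissues was 133, 61 and 3 with quantile normalization, without replicate 3 of both groups and with array weights, and 6 to 3343 with 1 library left out. The count of 1748 genes without overlap was 4809 without replicate 3 of both groups and 2520 to 4264 with 1 library left out, since fewer values overlap less often. In the fit with the replicate block, limma called 0 genes (smallest adjusted p 0.508).

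Over 19 alternatives in tumors, Nr1d1 passed the threshold in 6, Rbm3 in 5, Dbp and Prss22 in 3 each, Nr1d2 in 2 and Lrig1 in 1. Of the values for single genes under alternatives, 1722 kept direction and side of the threshold, 161 lost it, 53 gained it and 16 changed sign. In tumors the sign changed for Maf (-0.076 without replicate 3 of both groups) and Mafg (0.209 without KO-8-hetero replicate 1, range -0.53 to 0.209). In normal tissue Maf was -0.016 and Prss22 -0.009 with quantile normalization. With 1 library left out, normal tissue gave -0.156 to 0.429 for Maf, -0.114 to 0.168 for Gstt1, -0.114 to 0.186 for Lrig1, -0.083 to 0.182 for Ccdc117, -0.451 to 0.272 for St6gal1, -0.039 to 0.122 for Prss22, -0.023 to 0.899 for Mmp13 and -0.359 to 0.139 for Lpcat4. Depth per gene is not held by FPKM, so its limit could not be given.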

Other observations

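Some secretory genes, chosen after their values were seen, were far apart between the normal tissues of the groups without passing the test. Of 12 tested goblet cell genes, 7 were higher and 1 (Zg16) lower in KO-1-hetero normal tissue without overlap, and of 13 Reg and antimicrobial genes 5 were higher and 3 (Saa1, Saa2 and Duox2) lower. Over all tested genes, 24.2% were higher and 27.2% lower there without overlap, and the list counts were not tested against these shares. Retnlb, a goblet cell protein that binds bacteria, was at 1420 and 1580 FPKM in KO-1-hetero and 4.75 and 12.1 FPKM in KO-8-hetero normal tissue (7.44, limma adjusted p 0.0747). The antimicrobial ribonuclease gene Ang4 was at 2740 and 2860 FPKM against 19.3 and 184 FPKM (5.51, limma adjusted p 0.076). The mucin gene Muc2 was at 1290 and 1560 FPKM against 193 and 215 FPKM, and the lectin gene Itln1 at 52.8 and 60.7 FPKM against 3.7 and 8.11 FPKM. The granule transport gene Sytl2 did pass, and rose by 1.51 in normal tissue (limma adjusted p 0.00553), a call lost with array weights and without KO-1-hetero normal replicate 1. The sodium channel subunit gene Scnn1b, of the distal colon, fell there by 1.37, at 1.11 and 1.1 FPKM against 6.21 and 3.1 FPKM (limma adjusted p 0.0349), a call lost without any 1 of the 4 normal libraries. Nox1, an epithelial NADPH oxidase, rose by 1.93 (limma adjusted p 0.0414), past the threshold in 7 of 13 alternatives. Exph5, a vesicle traffic gene, rose by 0.84 over both tissues (limma adjusted p 0.0148), a call lost with array weights and without KO-1-hetero normal replicate 1 or KO-8-hetero normal replicate 2.

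Hoxd13, a homeobox gene of the hindmost gut, was at 7.22, 0.811 and 1.39 FPKM in KO-1-hetero tumors and 55.1, 27 and 0.226 FPKM in KO-8-hetero tumors. In normal tissue it was at 4.99 and 4.73 FPKM against 56.3 and 32.9 FPKM. Its neighbour in use, Hoxb13, was at 149, 160 and 38.2 FPKM against 136, 85.9 and 16.3 FPKM, with replicate 3 of each group the lowest of its group. The list of distal Hox genes did not follow Hoxd13 in tumors. There, 6 of its 7 tested members were higher in KO-1-hetero, with a median of 0.36 and 0 without overlap. In normal tissue the list median was -0.34, and 5 members were lower without overlap.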
